A study of Mus musculus with 2 samples.

Results

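Gfap-expressing astrocytes are described here in droplet single-cell RNA sequencing of the adult mouse striatum. They were chosen by a marker rule applied to each cell barcode (the tag that marks the transcripts of 1 droplet). A barcode had to hold 300 or more detected genes, at least 1 unique molecular identifier (UMI, a counted transcript) for at least 4 of the 8 astrocyte genes Aldoc, Gja1, Slc1a2, Slc1a3, Aqp4, Cldn10, Ntsr2 and Slc4a4, and no more than 1 summed UMI of Cx3cr1, Cldn5, Pdgfra and Mog, which mark microglia, endothelium, oligodendrocyte precursors and oligodendrocytes. It also had to hold 2 or more Gfap UMIs and fewer than 3 Agt UMIs. In all, 102 of the 12415 barcodes met this rule, 61 in library 1 and 41 in library 2. They are called Gfap 2+ barcodes below, and the comparison was with the 1966 barcodes that passed the same astrocyte and Agt limits with no Gfap UMI (Gfap 0), 1138 in library 1 and 828 in library 2. Another 151 barcodes held exactly 1 Gfap UMI.

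The series held 2 libraries of a single group, untreated mice aged 8 to 10 weeks by the sample labels, with no genotype, drug or lesion to compare. The strain is given as C57/Bl6J in one label and as C57BL/6NTac in another, and the material is labelled glia enriched. Tissue was dissociated with pronase and cleared of myelin, and the study's methods name actinomycin D, which blocks transcription, in the dissociation solutions. The libraries held 6978 barcodes with 44597660 UMIs and 5437 barcodes with 37982720 UMIs. The libraries shared 9 barcode sequences, none of them in a Gfap 2+ barcode. The labels do not tie either library to named mice. As the groups were compared within each library, p-values measure how far the group difference varied between these 2 libraries, which may be partly technical.

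Gfap encodes glial fibrillary acidic protein, an intermediate filament subunit that assembles with vimentin in the astrocyte cytoskeleton. In the healthy rodent forebrain it is abundant in fibrous astrocytes of white matter, in astrocytes at the pial surface and around vessels, and in the stem cell astrocytes of the wall of the lateral ventricle, whereas many protoplasmic astrocytes of grey matter, the striatum among them, make little of it. Injury and inflammation raise it in most astrocytes, which is why it is widely read as a sign of reactivity.

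The Gfap gene lies on chromosome 11 (GRCm38, chr11:102887336-102900912, minus strand). The Gfap 2+ barcodes held a median of 3 Gfap UMIs, with a lowest value of 2 and a highest of 39. Just inside the threshold, 41 barcodes held exactly 2, and just outside it were the 151 with 1. At the upper end, 49 held 4 or more and 12 held 10 or more. Scaled to depth, the median was 7.49 Gfap UMIs per 10000, ranging from 0.348 to 77.2. These values chose the barcodes and are given as a description only. The 102 barcodes held 48.2% of all Gfap UMIs of library 1 and 49.2% of those of library 2.

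**Figure D1:**
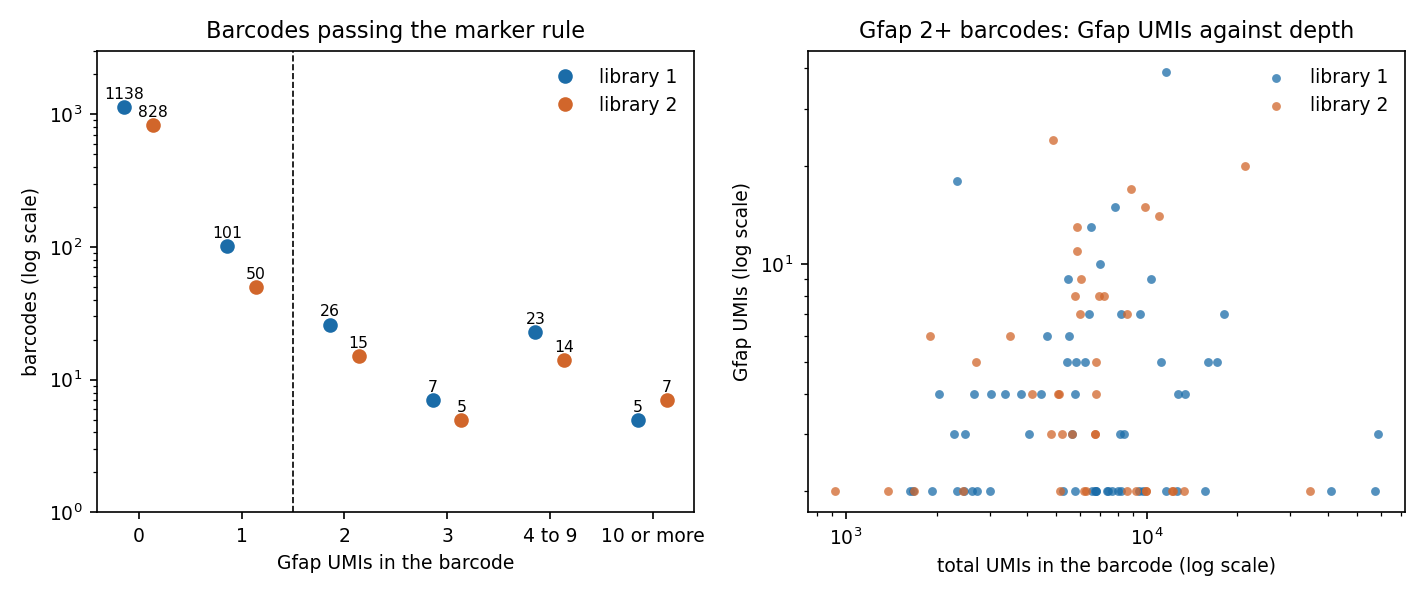
Left, number of barcodes (log scale) passing the astrocyte and Agt limits by their Gfap UMIs, for each library, with the threshold of 2 as a dashed line; numbers fall from 1138 and 828 barcodes at 0 to 26 and 15 at 2. Right, Gfap UMIs against total UMIs for each of the 102 Gfap 2+ barcodes, both on log scales; points at 2 Gfap UMIs reach across nearly the whole range of depth.

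Gfap 2+ barcodes made up 4.69% of the barcodes passing the astrocyte and Agt limits in library 1 (61 of 1300; exact Clopper-Pearson 95% interval 3.61 to 5.99) and 4.46% in library 2 (41 of 919; 3.22 to 6.00), a mean of 4.58% ± 0.163 (SD, n = 2 libraries). The intervals overlapped almost fully. Among barcodes with microglial markers, which should lack the gene, 0 of 752 and 0 of 924 held 2 or more Gfap UMIs, which by the limit of 3 counts allows shares of up to 0.399% and 0.325% (Clopper-Pearson upper bounds of 0.489% and 0.398%). With 1 or more Gfap UMIs the microglial background was 15 of 752 (1.99%) and 8 of 924 (0.866%), and at 2000 UMIs 0.901% and 0.254%, against 8.89% and 6.36% of the astrocyte barcodes. These microglial barcodes were the deeper ones, with medians of 6421 and 5466 UMIs against 2261.5 and 3610 in the astrocyte barcodes. The share depended on depth: with each barcode reduced at random to 2000 UMIs and shallower ones left out, 3.47% (25 of 720) and 2.75% (16 of 582) still held 2. Intervals and limits here cover counting error only.

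As the rule needs 2 transcripts, it took deeper barcodes. Gfap 2+ barcodes held a median of 6589 UMIs in library 1 and 6162 in library 2, against 2067 and 3016.5 in Gfap 0 barcodes. Their median share of mitochondrial UMIs was 4.55% and 6.82%, against 7.59% and 8.56%. For this reason the comparison was repeated on Gfap 0 barcodes drawn to match the depth of the Gfap 2+ barcodes, with 60 pairs in library 1 and 41 in library 2 and medians of 6552 and 6162 UMIs against 6297.5 and 6456. The comparison of these pairs is called the depth-matched comparison below. It left out the Gfap 2+ barcode of 57499 UMIs in library 1. That barcode held 73 of the 173 Crym UMIs and 46 of the 235 S100a6 UMIs of Gfap 2+ barcodes in library 1.

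The astrocyte label was checked against genes that the rule did not use. Levels are given as CPM (the UMIs of a gene per 1000000 UMIs, summed over the barcodes of a group in 1 library). Apoe, the main lipid carrier made by astrocytes, reached 19715 and 23931 CPM in Gfap 2+ barcodes, 19997 and 25015 CPM in Gfap 0 barcodes, and 4552 and 3934 CPM in microglial barcodes. Glul, glutamine synthetase, stood at 2266 and 2329 CPM, at 1896 and 2279 CPM, and at 893 and 714 CPM. The metallothionein gene Mt1 stood at 7189 and 8368 CPM, at 5313 and 7313 CPM, and at 323 and 278 CPM. All 3 were thus higher in both astrocyte groups than in microglial barcodes, where 76.8% and 72.3% of barcodes still held Apoe at 2000 UMIs, so detection alone does not separate the classes. Between Gfap 2+ and Gfap 0 barcodes neither Apoe nor Glul passed edgeR's quasi-likelihood test (log2 fold differences -0.08 and 0.11, adjusted p = 0.913 and 0.831), and neither did Mt1 (0.28, adjusted p = 0.516), its companion Mt2 (0.30, adjusted p = 0.465) or the potassium channel gene Kcnj10 (-0.16, adjusted p = 0.831). No Gfap 2+ barcode was marked as a doublet by Scrublet. It marked 10 of 1966 Gfap 0 barcodes, too few to tell the groups apart.

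Against Gfap 0 barcodes, 73 of 7167 genes tested passed an adjusted p of 0.05 (1.02% of genes tested), 28 higher (0.391%) and 45 lower (0.628%) in Gfap 2+ barcodes. All 73 went the same way in both libraries, as did 4203 of the 7167 genes tested. A test with library as a block favours genes that agree between libraries, so this agreement is a description. Of the 28 that rose 1 (Myoc), and of the 45 that fell 12 (hemoglobin genes, Rgs5, Vtn, Penk and C1qa among them), had a mean under 20 CPM in the lower group and so reached the minimum level for testing (a mean of 20 CPM over both groups) through the other group, which leaves their tests as a description. UMIs were summed per library and group, giving 4 sums fitted with library as a block, and the 14 genes of the rule were not tested. Without the block edgeR called 0 genes (427 at an unadjusted p under 0.05, against 875 with it), and DESeq2 with the block called 43, 23 higher and 20 lower. The genes that rose included secreted and matrix proteins (Myoc, Thbs4, Sfrp1, Igfbp5), ion transport regulators (Fxyd6, Fxyd1), the filament gene Vim, the calcium-binding protein gene S100a6 and the homeodomain gene Hopx. Of the 45 that fell, 21 belong to lists of genes of other cells (hemoglobins, myelin, microglia, mural cells and neurons), beside 63 of all 7167 genes tested (0.879%). None of the 28 that rose is on these lists, which with so small a background share is not a result about them.

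**Figure D2:**
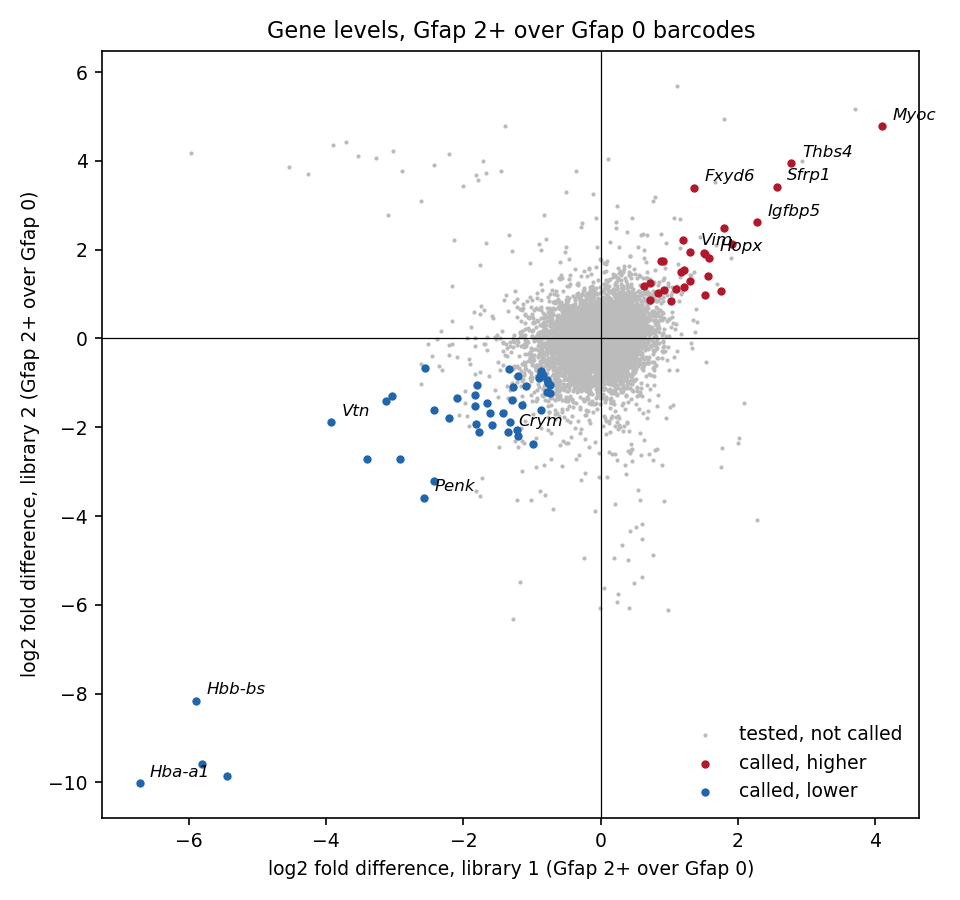
Log2 fold difference of each of the 7167 genes tested in library 1 (horizontal) and library 2 (vertical), Gfap 2+ over Gfap 0 barcodes; red and blue points mark the 28 genes that rose and the 45 that fell at an adjusted p of 0.05. Called genes lie in the upper right and lower left, with Myoc and Thbs4 at the upper end and the hemoglobin genes at the lower end.

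Thbs4 (chr13:92751590-92794818, minus strand) encodes thrombospondin 4, a secreted glycoprotein made by astrocytes of the subventricular zone. It stood at 210 and 221 CPM in the Gfap 2+ barcodes of libraries 1 and 2 and at 28.5 and 13.4 CPM in Gfap 0 barcodes. The Poisson 95% intervals did not overlap in either library (173 to 251 against 24.0 to 33.6, and 172 to 280 against 10.1 to 17.5). These intervals cover counting error only and not the spread between barcodes. The 3 richest Gfap 2+ barcodes held 44 of 117 Thbs4 UMIs in library 1 and 28 of 68 in library 2. The fitted log2 fold difference was 3.30 (SE 0.29, adjusted p = 0.000531), a 9.87-fold higher level. Thbs4 was spread over many cells: 44 of 102 Gfap 2+ barcodes held it, and the richest had 23 of the 185 UMIs. At 2000 UMIs per barcode it was found in 20.7% and 43.2% of Gfap 2+ barcodes, 4.05% and 1.19% of Gfap 0 barcodes, and 0.18% and 0% of microglial barcodes. Without thinning the Gfap 2+ shares were 39.3% and 48.8%.

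Sfrp1 (chr8:23411502-23449632, plus strand), a secreted Wnt antagonist, followed the same form. Its level was 240 and 328 CPM against 38.1 and 29.8 CPM, a log2 fold difference of 2.97 (SE 0.23, adjusted p = 0.000165), and 46 of the 102 barcodes held it. At 2000 UMIs the shares were 25.9% and 29.7% of Gfap 2+ barcodes, 4.05% and 4.76% of Gfap 0 barcodes and 0.36% and 0.127% of microglial barcodes. Igfbp5 (chr1:72857932-72874884, minus strand), which binds insulin-like growth factors, stood at 863 and 898 CPM against 170 and 145 CPM. Igfbp5 was detected in 75 Gfap 2+ barcodes and rose by 2.44 on the log2 scale (SE 0.16, adjusted p = 3.98e-05). At 2000 UMIs it was found in 41.4% and 59.5% of Gfap 2+ barcodes, 16.7% and 15.9% of Gfap 0 barcodes and 1.08% and 0.888% of microglial barcodes. For both genes every Gfap 2+ value lay above every Gfap 0 value.

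Myoc (chr1:162639155-162649693, plus strand), which encodes the secreted protein myocilin, rested on few cells. Its level was 93.2 and 247 CPM against 4.42 and 8.20 CPM. Only 9 of the 102 Gfap 2+ barcodes held a Myoc UMI, 4 in library 1 and 5 in library 2, and 1 barcode held 60 of the 128 UMIs. Among Gfap 0 barcodes 15 of 1966 held it, and among microglial barcodes 2 of 752 and 0 of 924. As it reached the minimum level for testing only through the Gfap 2+ group, these values are a description. The gene was thus detected in few barcodes of either group, at high counts in some of them.

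Vim (chr2:13573927-13582826, plus strand), which encodes vimentin, the filament partner of the Gfap protein, stood at 478 and 465 CPM against 185 and 119 CPM and rose by 1.61 on the log2 scale (SE 0.18, adjusted p = 0.00256). S100a6 (chr3:90612882-90624181, plus strand) stood at 421 and 842 CPM against 140 and 224 CPM, with a log2 fold difference of 1.71 (SE 0.16, adjusted p = 0.000668). Hopx (chr5:77086988-77115121, minus strand), a homeodomain protein gene without DNA binding of its own that is used as a stem cell marker, stood at 283 and 462 CPM against 90.3 and 129 CPM (log2 fold difference 1.70, SE 0.16, adjusted p = 0.000668). Vim, S100a6 and Hopx were detected in 70, 75 and 65 of the 102 barcodes. At 2000 UMIs Vim was found in 50% and 48.6% of Gfap 2+ barcodes, 14.4% and 13.5% of Gfap 0 barcodes and 4.87% and 2.54% of microglial barcodes. For S100a6 the shares were 41.4% and 70.3%, 22.0% and 27.6%, and 1.26% and 2.28%. For Hopx they were 43.1% and 43.2%, 12.8% and 18.8%, and 1.08% and 1.02%. All 3 genes were thus found more often in Gfap 2+ barcodes at equal depth. For S100a6 and Hopx the Gfap 2+ level of library 2 was well above that of library 1, while for Vim the levels were close.

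The remaining large rises were Fxyd6, a regulator of the sodium pump (2.30, SE 0.38, adjusted p = 0.0216), Rlbp1, a retinaldehyde-binding protein gene (2.13, SE 0.24, adjusted p = 0.00256), Ppp1r1a, an inhibitor of protein phosphatase 1 (2.01, SE 0.26, adjusted p = 0.00483), Riiad1 (1.75, SE 0.275, adjusted p = 0.0165) and Ass1, argininosuccinate synthase (1.72, SE 0.22, adjusted p = 0.00483), all as log2 fold differences from edgeR. The 2 libraries differed most for Fxyd6, with log2 differences of 1.36 and 3.40. Riiad1 leaned on 1 barcode, which held 40 of its 96 UMIs. Dbi, a lipid-binding peptide gene, also rose (1.33, SE 0.20, adjusted p = 0.0154), from 1928 and 2187 CPM to 3780 and 7415 CPM, with 721 of 4390 UMIs in 1 barcode. Crip1 rose (1.46, SE 0.21, adjusted p = 0.00936) with 135 of its 201 UMIs in 1 barcode, and after thinning to 2000 UMIs its difference was -0.04 (adjusted p = 0.994).

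In the depth-matched comparison 18 of 7151 genes passed (0.252%), 7 higher (0.0979%) and 11 lower (0.154%). The 7 higher were Myoc, Thbs4, Sfrp1, Igfbp5, Rlbp1, Hopx and Vim, all among the 28 above. Their log2 fold differences were 5.03, 3.72, 2.27, 2.03, 2.10, 2.05 and 1.31. Thbs4 averaged close to the minimum of 20 CPM in the Gfap 0 barcodes of the full comparison. Whether it reached that minimum here only through the Gfap 2+ group was not checked, so its call, like that of Myoc, is a description. S100a6 no longer passed (1.5002, adjusted p = 0.139), nor did Fxyd6 (1.98, adjusted p = 0.0921), Ppp1r1a (1.88, adjusted p = 0.0846), Ass1 (1.64, adjusted p = 0.103) and Riiad1 (1.37, adjusted p = 0.406). The matched sums hold about as many UMIs in each group, so the Gfap 0 side carries more counting error than in the full comparison.

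**Figure D3:**
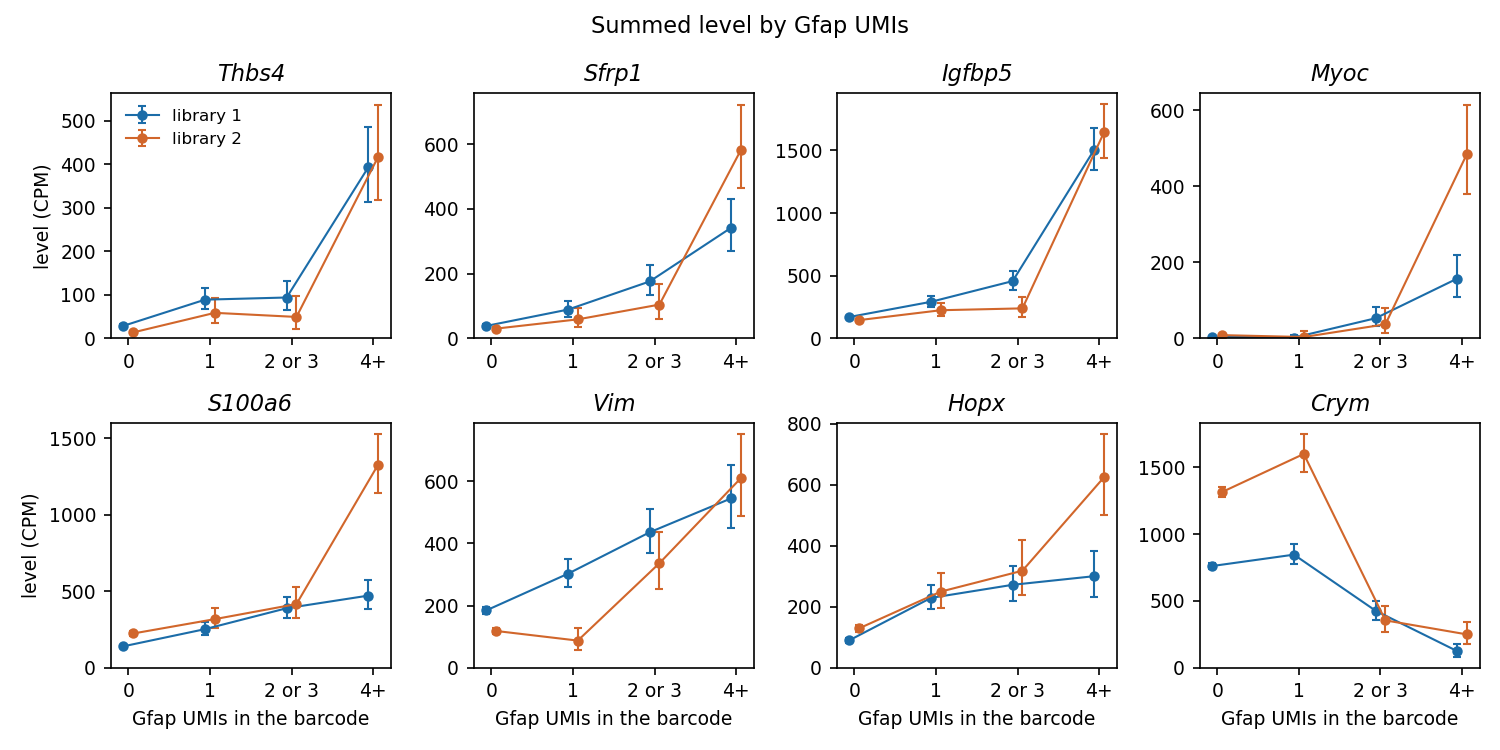
Level (CPM) of 8 genes in barcodes with 0, 1, 2 or 3, and 4 or more Gfap UMIs, for library 1 (blue) and library 2 (orange), with Poisson 95% intervals (counting error only) as bars. Thbs4, Sfrp1, Igfbp5 and Myoc are highest at 4 or more Gfap UMIs in both libraries.

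Levels were next followed over 4 ranges of Gfap UMIs (0, 1, 2 or 3, and 4 or more), as in the plot of levels by Gfap UMIs. Thbs4 stood at 28.5, 88.7, 93.6 and 393 CPM in library 1 and at 13.4, 58.4, 49.0 and 416 CPM in library 2. Igfbp5 stood at 170, 291, 456 and 1506 CPM and at 145, 224, 239 and 1645 CPM. For both genes the large step lay between 2 or 3 and 4 or more UMIs, and median depth was close in these top ranges, 6754 and 6337 UMIs in library 1 and 6506.5 and 5983 in library 2. Summed depth was less even: in library 1, 33 barcodes held 341804 UMIs at 2 or 3, and 28 held 216411 at 4 or more. The deepest of those 33 held 40925, 57499 and 58528 UMIs. Without the 3 richest barcodes of each of these top ranges, an alternative added after the values had been seen, Thbs4 stood at 47.8 and 208 CPM in library 1 and at 6.98 and 262 CPM in library 2, and Igfbp5 at 265 and 1198 CPM and at 130 and 1254 CPM. Vim stood at 185, 303, 436 and 545 CPM in library 1 and at 119, 87.6, 337 and 611 CPM in library 2. At 2 or 3 Gfap UMIs a few barcodes held most of it, 105 of 149 UMIs in the 3 richest of library 1 and 38 of 55 in the richest of library 2. Without the 3 richest barcodes Vim stood at 238 and 348 CPM in the top ranges of library 1 and at 85.5 and 537 CPM in those of library 2. Crym stood at 761, 846, 427 and 125 CPM in library 1 and at 1315, 1599, 355 and 250 CPM in library 2, so barcodes with 1 Gfap UMI did not lie between the neighbouring ranges for this gene. Without the 3 richest barcodes its levels in the top ranges were 29.8 and 65.8 CPM in library 1 and 6.98 and 0 CPM in library 2, where 1 barcode held all 36 Crym UMIs at 4 or more Gfap UMIs.

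Crym (chr7:120186380-120202111, minus strand) encodes mu-crystallin, a thyroid hormone-binding protein and the gene that the study was built around. Gfap 2+ barcodes held 310 and 306 CPM of Crym, against 761 and 1315 CPM in Gfap 0 barcodes, a log2 fold difference of -1.71 (SE 0.19, adjusted p = 0.00256). It was detected in 24 of 102 Gfap 2+ barcodes and 819 of 1966 Gfap 0 barcodes, although the former were deeper. Within the Gfap 2+ barcodes a few held most of it: in library 1 the 2 richest, with 2 and 3 Gfap UMIs, held 130 of 173 Crym UMIs, and in library 2 the 3 richest, with 7, 2 and 2 Gfap UMIs, held 91 of 94. Without these the levels were 87.3 and 10.6 CPM. At 2000 UMIs the shares were 17.2% and 10.8% against 36.1% and 47.6%, with 3.60% and 2.66% of microglial barcodes as the background (without thinning, 12.4% and 6.39%). The difference held in the depth-matched comparison (-1.83, adjusted p = 0.0129).

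Few other genes of protoplasmic astrocytes passed. Of 38 tested genes from a list of proteins that face the synapse, 3 fell and none rose, beside 0.628% of all genes that fell, and the median log2 fold difference was -0.32 (-0.0015 over all genes tested). The 3 were Trpm3, a cation channel (-1.58, SE 0.27, adjusted p = 0.0265), Gpc5, a heparan sulfate proteoglycan (-1.19, SE 0.21, adjusted p = 0.0292), and Mertk, a phagocytic receptor (-0.87, SE 0.17, adjusted p = 0.0437). In all 31 of the 38 had values below 0. In the depth-matched comparison none of 37 passed, and the median was -0.17. Slc6a11, which encodes the GABA transporter GAT3, stood at 193 and 299 CPM against 280 and 407 CPM and did not pass (-0.52, SE 0.15, adjusted p = 0.178). Outside this list, the GABA-B receptor gene Gabbr2 fell (-1.996, SE 0.31, adjusted p = 0.0151), as did Grin2c, an NMDA receptor subunit (-1.03, SE 0.20, adjusted p = 0.044), and Timp4, an inhibitor of matrix proteases (-0.87, SE 0.17, adjusted p = 0.044). Gabbr2 and Grin2c are named here because of their values. None of these 7 genes passed in the depth-matched comparison, where Trpm3, Gpc5, Mertk, Slc6a11, Gabbr2, Grin2c and Timp4 stood at -1.22, -0.79, -0.71, -0.28, -1.99, -0.36 and -0.72. Of 15 endfoot and water balance genes none passed in either direction (median -0.19).

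Of 22 tested genes of fibrous and border astrocytes, 6 rose and none fell, beside 0.391% of all genes that rose, with a median log2 fold difference of 0.47. In all 15 of the 22 had values above 0 and 7 below, and Itih3, Efemp1 and Kcnk1 were lower at an unadjusted p under 0.05 without passing (-0.86, -0.9995 and -0.67, adjusted p = 0.182, 0.351 and 0.140). The 6 were Myoc, Igfbp5, S100a6, Crip1, the sodium pump regulator Fxyd1 (675 and 1203 CPM against 288 and 423 CPM; 1.33, SE 0.15, adjusted p = 0.00256) and the fatty acid-binding protein gene Fabp7 (921 and 787 CPM against 305 and 399 CPM; 1.26, SE 0.17, adjusted p = 0.0065). Of these, Myoc was tested only through its Gfap 2+ level and Crip1 rested on 1 barcode, as given above. Complement C4b (0.99, adjusted p = 0.0990) and the BMP target Id3 (0.53, adjusted p = 0.277) did not pass, although C4b did in 5 of 17 alternatives (adjusted p from 0.0044 to 0.9998) and Id3 in 2 of 17 (0.0272 to 0.901). Among 18 tested genes of adult neural stem cells, 4 rose and none fell (median 0.49), namely Thbs4, Hopx, Riiad1 and Fabp7, the last shared with the fibrous list. In the depth-matched comparison 2 of 20 fibrous genes rose, Myoc and Igfbp5, and 2 of 17 stem cell genes, Thbs4 and Hopx. The calls of Myoc and Thbs4 there are a description, as given above. Of all genes tested in that comparison 0.0979% rose. Fxyd1 and Fabp7 stood there at 1.33 and 1.14 without passing (adjusted p = 0.0936 and 0.375). Most genes of both lists did not pass.

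Genes of reactive astrocytes were mostly at low levels. Only 5 of the 34 on that list reached the minimum mean level of 20 CPM, and 11, among them Lcn2, Timp1, Cxcl10 and Ptgs2, had no UMI in any Gfap 2+ barcode. Vim was the 1 gene of the 5 that rose. The counts of this paragraph stand beside 0.391% of all genes tested that rose and 0.628% that fell. None of 5 tested genes of JAK-STAT3 and cytokine signalling passed, nor any of 18 in BMP, TGF-beta and Notch signalling, 6 immediate early genes, 12 heat shock genes or 5 interferon-stimulated genes. Of 17 tested genes of metallothioneins and oxidative stress 1 rose, the glutathione transferase gene Gsta4 (1.31, SE 0.24, adjusted p = 0.0336), and of 27 actin and cell shape genes 1 rose, the calponin gene Cnn3 (0.90, SE 0.17, adjusted p = 0.044). Of 18 tested genes on a list of striatal and forebrain patterning, which includes Crym for its regional expression, 2 fell, Crym and the interneuron lineage factor Dlx1 (-1.85, SE 0.27, adjusted p = 0.00936). Dlx1 is also on the neuroblast list. Of 17 lipid genes Dbi and Fabp7 rose, and Ptgds, prostaglandin D synthase, fell (-1.59, SE 0.21, adjusted p = 0.00518). Ptgds is also on the list of fibroblasts and meninges, 1 Gfap 0 barcode held 1455 of its 4025 UMIs in that group, and in the depth-matched comparison it stood at -0.23 (adjusted p = 0.913). In matrix and adhesion genes Thbs4 rose and Timp4 fell, of 24 tested.

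**Figure D4:**
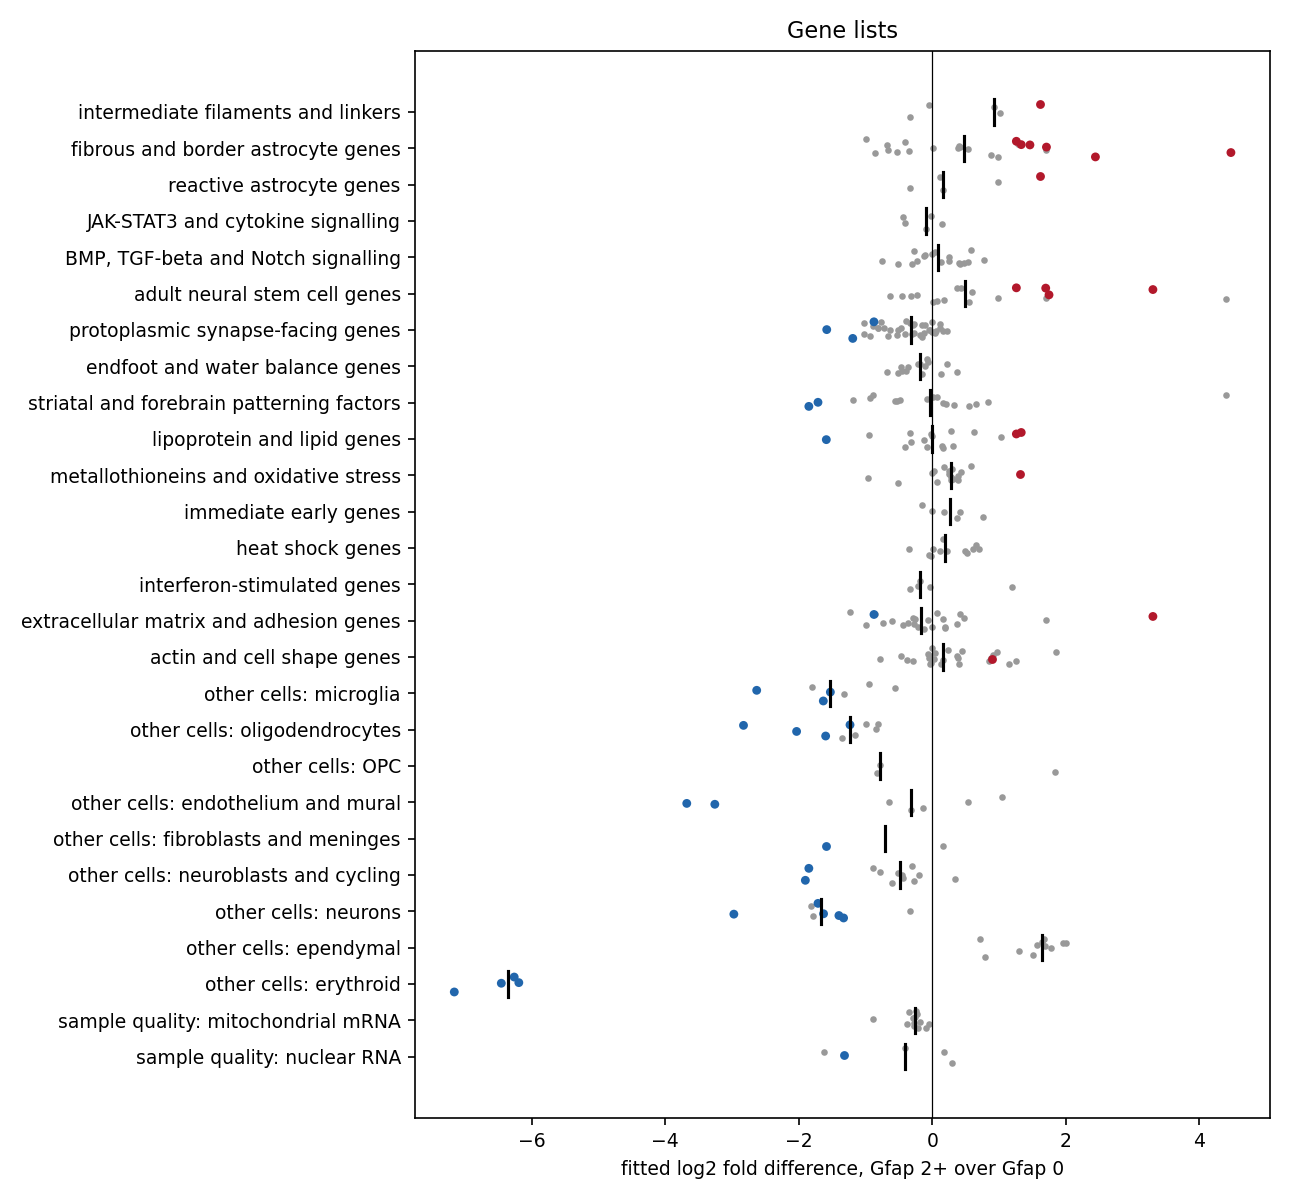
Fitted log2 fold difference, Gfap 2+ over Gfap 0, of each tested gene in 27 lists; red and blue points are genes that rose or fell at an adjusted p of 0.05, grey points did not pass, and black bars are list medians. The medians of the fibrous and stem cell lists lie to the right of 0, with 7 of 22 and 4 of 18 genes below 0, and the medians of the microglia, oligodendrocyte, neuron and erythroid lists lie to the left.

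Many of the genes that fell are genes of other cells, some of them concentrated in a few Gfap 0 barcodes and others spread over many. The hemoglobin gene Hbb-bs stood at 75.2 and 13.0 CPM in Gfap 2+ barcodes and at 4333 and 3936 CPM in Gfap 0 barcodes, but 14 Gfap 0 barcodes with over 1% of their UMIs from hemoglobin genes held 98.5% of the hemoglobin UMIs of that group. No Gfap 2+ barcode passed 1%. Oligodendrocyte genes summed to 1188 and 742 CPM against 4098 and 1063 CPM, and in library 1 the 2 richest Gfap 0 barcodes held 3523 and 3112 of 20417 UMIs. Of the myelin genes, Mag fell (-2.83, SE 0.335, adjusted p = 0.00284), as did Mbp (-1.60, SE 0.18, adjusted p = 0.00256). Further falls among the 12 largest were the mural cell gene Rgs5, Vtn, the striatal neuropeptide gene Penk and the microglial complement gene C1qa, with log2 fold differences of -3.26, -3.68, -2.97 and -2.63. Microglial genes summed to 229 and 195 CPM against 630 and 378 CPM, and neuronal genes to 450 and 332 CPM against 1106 and 948 CPM. In the depth-matched comparison none of 2 tested microglial, 4 endothelial and mural or 6 neuronal genes passed. Their median log2 fold differences were -0.03, 0.02 and -0.70. There 2 of 9 oligodendrocyte genes and 4 of 4 hemoglobin genes fell (medians -1.56 and -7.52), beside 0.154% of all genes tested. Microglial genes were found in 849 of 1138 and 455 of 828 Gfap 0 barcodes, and in 50 of 61 and 29 of 41 of the deeper Gfap 2+ barcodes, so being found in many barcodes does not set the groups apart. At 2000 UMIs C1qa was held by 11.5% and 5.56% of Gfap 0 barcodes and by 5 of 58 and 0 of 37 Gfap 2+ barcodes.

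In Gfap 0 barcodes, 86 of 1966 had 2% or more of their UMIs from 1 of the lists of other cells, and 1 of the 102 Gfap 2+ barcodes did. Without these barcodes 123 of 7077 genes passed (1.74%), 65 higher (0.918%) and 58 lower (0.82%). All 28 genes that had risen passed again, and 26 of the 45 that had fallen did, Crym, Gpc5, Trpm3, Mertk, Gabbr2, C1qa, Vtn and Mbp among them. The summed microglial level of Gfap 0 barcodes was then 439 and 257 CPM, and the neuronal level 992 and 466 CPM. Mag, Hbb-bs and Penk no longer passed, with log2 fold differences of -1.09, -0.54 and -1.59 (adjusted p = 0.102, 0.373 and 0.0677). C1qa, Vtn, Mbp, Mag, Hbb-bs and Penk are on the lists that made this selection, so their values after it, and the summed levels, are a description. The selection was added after the values had been seen.

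The 1 Gfap 2+ barcode above this limit, in library 2, was rich in genes of ependymal cells, the ciliated lining of the ventricle. It held 735 of the 780 ependymal UMIs in the Gfap 2+ barcodes of that library. The summed ependymal level was 2537 CPM in library 2 with this barcode and 165 CPM without it, against 269 CPM in Gfap 0 barcodes, and in library 1 it was 136 CPM against 442 CPM. All 11 tested ependymal genes had values above 0 (median 1.65), none passed, and in library 1 their summed level went the other way. Without this barcode and the others above the limit, Riiad1 stood at 1.10 (adjusted p = 0.0464) and Thbs4 at 3.25. Neuroblast and cycling genes summed to 2356 and 800 CPM against 2985 and 1456 CPM, and in library 1 the 2 richest Gfap 2+ barcodes held 335 and 240 of 1315 UMIs, and in library 2 the richest held 149 of 246. Their part in the other differences was not tested.

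**Figure D5:**
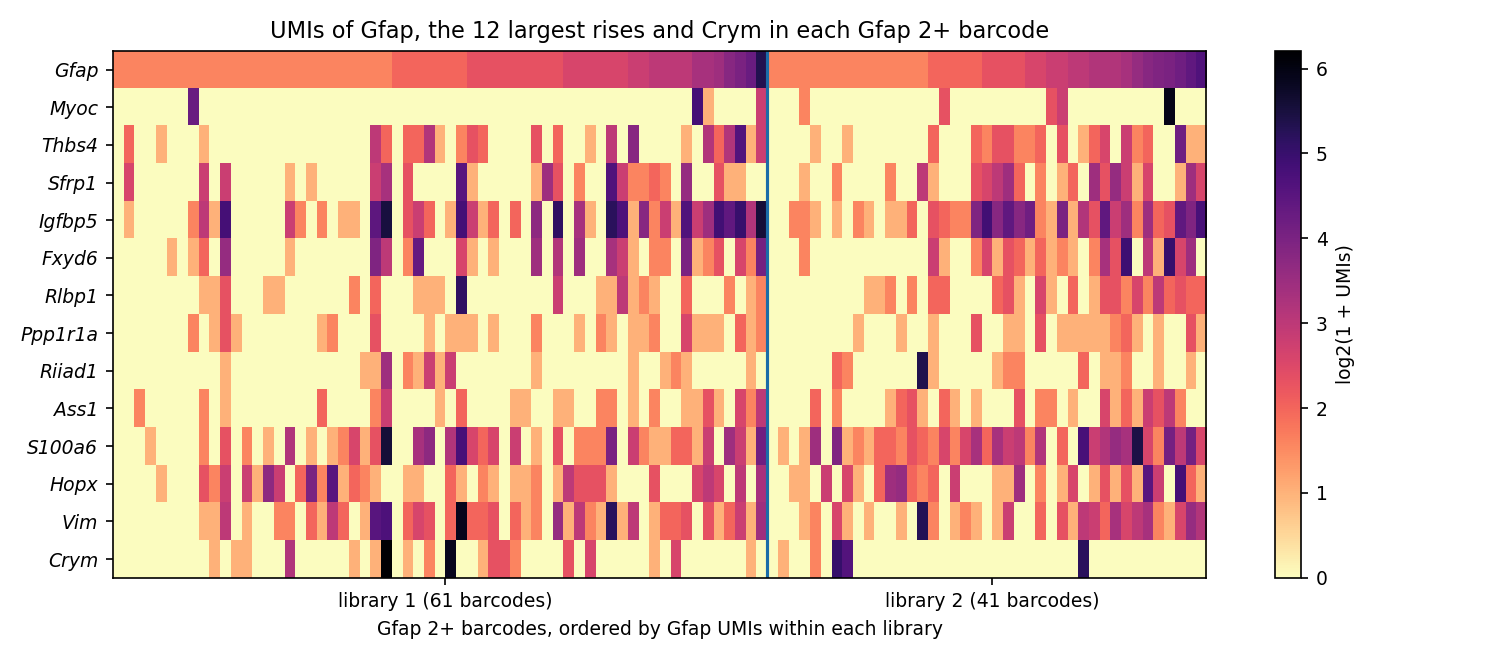
UMIs (log2 of 1 plus the count) of Gfap, the 12 genes with the largest rises and Crym in each of the 102 Gfap 2+ barcodes, ordered by Gfap UMIs within library 1 (61, left of the line) and library 2 (41). Igfbp5, S100a6, Hopx and Vim are found across most barcodes, Myoc in 9, and Crym in 24.

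The Gfap 2+ barcodes were not uniform, as the map of UMIs in each barcode shows. Of the 12 largest rises a Gfap 2+ barcode held a median of 5 in library 1 and 6 in library 2, with a range of 0 to 11 in each, against 1 and 1 in Gfap 0 barcodes. Among barcodes with 4000 or more UMIs the medians were 6 and 7.5 against 3 and 3. At that depth 41 of 332 and 31 of 369 Gfap 0 barcodes also held 6 or more, that is 12.3% and 8.4%, compared with 51.1% and 70.6% of Gfap 2+ barcodes. The 12 genes were picked for their rise in these barcodes, so these counts are a description.

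Of the Gfap 2+ barcodes, 31 held both Thbs4 and Sfrp1, 13 Thbs4 alone, 15 Sfrp1 alone and 43 neither. In library 1, 15 held both, 9 Thbs4 alone and 9 Sfrp1 alone. In library 2 these numbers were 16, 4 and 6. Of the 44 barcodes with Thbs4, 41 also held Igfbp5. Myoc and Thbs4 shared 3 barcodes, with 6 holding Myoc alone and 41 Thbs4 alone. None of the 9 barcodes with Myoc held Crym, which 24 held. These counts are small, and deeper barcodes hold more of every gene, so no test was made.

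Gfap 2+ barcodes with and without Thbs4 had medians of 5956 and 6721.5 UMIs. In library 1 the mean was 12548 against 6947, as 3 of the 24 barcodes with Thbs4 held over 30000 UMIs each. Those with Thbs4 held 1232 and 1806 CPM of Igfbp5 in libraries 1 and 2, against 432 and 201 CPM in those without. Vim stood at 701 and 607 CPM against 218 and 356 CPM. Slc6a11 was lower in those with Thbs4, at 93.0 and 157 CPM against 311 and 408 CPM. Gpc5 stood at 36.5 and 30.0 CPM against 222 and 149 CPM. The amino acid transporter gene Slc7a10 stood at 66.4 and 142 CPM against 541 and 333 CPM. Each of these 5 genes kept its direction in both libraries, as a description of barcodes divided after their values were seen. So did other genes, Sfrp1, S100a6 and Fxyd6 among them, which were higher with Thbs4, while Hopx and Crym changed direction between the libraries. Hopx stood at 156 and 644 CPM with Thbs4 against 432 and 322 CPM without it. Crym stood at 279 and 457 CPM against 346 and 190 CPM. Fabp7, one of the genes that rose, was lower with Thbs4 in both libraries (707 and 674 CPM against 1171 and 874 CPM). Without barcodes of 30000 or more UMIs (3 with Thbs4 in library 1 and 1 without it in library 2), those with Thbs4 held 1935 and 1806 CPM of Igfbp5, 118 and 157 CPM of Slc6a11 and 69.3 and 30.0 CPM of Gpc5, against 432 and 252, 311 and 503, and 222 and 187 CPM. With the same barcodes left out, Vim stood at 735 and 607 CPM against 218 and 173 CPM. Slc7a10 stood at 118 and 142 CPM against 541 and 417 CPM. In Gfap 0 barcodes Slc6a11 stood at 280 and 407 CPM and Gpc5 at 214 and 299 CPM.

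Emx1, a homeodomain factor of the pallium, the part of the embryonic brain that forms the cortex, was detected in 17 of 102 Gfap 2+ barcodes (8 and 9 in the libraries) and in 8 of 1966 Gfap 0 barcodes, at 32.2 and 55.3 CPM against 1.61 and 0.745 CPM. Among microglial barcodes 1 of 752 and 2 of 924 held it. At 2000 UMIs per barcode, 2 of 58 and 2 of 37 Gfap 2+ barcodes still held Emx1, and 3 of 592 and 0 of 504 Gfap 0 barcodes. It did not pass edgeR's test (log2 fold difference 4.39, adjusted p = 0.141) and reached the minimum level for testing only through the Gfap 2+ group, so these values are a description. Emx1 is named here because of its values.

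Promoters are shown for Gfap, which defines these barcodes, and for Thbs4 and Vim, both called in the depth-matched comparison. They are the 250 bases before the RefSeq start of each gene (GRCm38.p6), read 5′ to 3′ on the gene's strand. The RefSeq start used here lies 3712 bases past the start of the GENCODE gene position given above for Gfap and 384 bases past it for Vim, so these 2 windows lie inside the GENCODE gene, while for Thbs4 the starts are the same. Capitals mark the letters TTGGC, the core recognised by nuclear factor I proteins, which take part in astrocyte differentiation, on either strand (GCCAA where the match is on the other strand).
Gfap, chr11:102897201-102897450, minus strand: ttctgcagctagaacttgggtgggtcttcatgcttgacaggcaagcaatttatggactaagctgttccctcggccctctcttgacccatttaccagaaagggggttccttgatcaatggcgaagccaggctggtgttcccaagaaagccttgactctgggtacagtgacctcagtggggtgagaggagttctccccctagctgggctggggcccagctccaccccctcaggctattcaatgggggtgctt
Thbs4, chr13:92794819-92795068, minus strand: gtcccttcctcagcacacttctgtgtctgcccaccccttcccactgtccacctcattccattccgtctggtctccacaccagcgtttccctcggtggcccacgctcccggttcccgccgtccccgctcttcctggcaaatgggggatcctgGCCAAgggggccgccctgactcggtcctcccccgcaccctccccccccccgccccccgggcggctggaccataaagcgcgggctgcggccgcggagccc
Vim, chr2:13574061-13574310, plus strand: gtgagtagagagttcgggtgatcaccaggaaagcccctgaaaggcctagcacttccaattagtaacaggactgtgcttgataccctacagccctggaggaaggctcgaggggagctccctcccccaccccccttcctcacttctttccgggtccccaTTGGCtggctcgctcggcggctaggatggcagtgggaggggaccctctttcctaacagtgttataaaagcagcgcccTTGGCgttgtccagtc
TTGGC occurs 0 times in the Gfap window, 1 time in that of Thbs4 and 2 times in that of Vim. Taking 1 window per gene, the first listed, 9 of the 12 largest rises had one, and 6 of these (66.7%) held TTGGC, compared with 41.9% of 27025 genes counted in the same way. Hopx has a second window without it. The STAT motif TTCNNNGAA (7.18% of genes) and the AP-1 motif TGANTCA (6.87%) were in none of these windows nor in that of Gfap. Only TTGGC matched in these windows, so no motifs overlapped, and a match to so short a motif is a description and not a site.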

How the data were processed

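The authors deposited raw UMI counts per gene and barcode for 2 libraries, made with Cell Ranger 4.0 on mm10 per the labels (4.0.0 in the matrix headers). The members and gene lists were chosen with earlier results of these data known, and p-values carry that limit. Barcodes were classed by the marker rule, counts were summed per library and Gfap group (558215 and 307465 UMIs in Gfap 2+, 4982596 and 4024219 in Gfap 0), and genes with a mean of 20 CPM or more over the 4 sums were tested with edgeR 4.0.16 (quasi-likelihood test, TMM scaling, library as block, prior count of 2, Benjamini-Hochberg adjustment, threshold 0.05, 1 residual degree of freedom, with the spread shared between genes). The block pairs sums from the same library. A fold in the text is 2 to the power of the fitted log2 value. On data simulated for this comparison (7167 genes, 200 changed) 85% of changes of 1.5 and 96% of changes of 2 on the log2 scale were recovered, with 5 false calls. Scrublet in scanpy 1.11.5 (expected rate 6%) marked 1.39% and 2.96% of barcodes, which were kept except in an alternative. Named genes were all genes of the rule, the 12 largest rises and falls among genes called in the same direction in both libraries, up to 4 called genes of each list and 11 genes chosen whatever their test, and others are said to be named for their values. Gene positions come from GENCODE vM21 (GRCm38), and promoters from RefSeq. Intervals are exact Poisson or Clopper-Pearson at 95% and cover counting error only.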

Additional observations from a re-analysis of the deposited data

How the results depend on the processing

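Of 7167 genes, 73 passed in the comparison of Gfap 2+ with Gfap 0 barcodes. Without library as a block (no pairing of the sums) edgeR called 0 genes, with 427 at an unadjusted p under 0.05, against 875 with it, and the lowest adjusted p was then 0.058. DESeq2 called 43 (23 higher, 20 lower), leaving out mitochondrial genes from the totals 42, barcodes under 20% mitochondrial UMIs 48 and the depth-matched barcodes 18. Genes detected in 10% of either group gave 403 calls, no filter on genes 370 (with a median log2 value of -0.16 over all genes), a Gfap minimum of 4 UMIs 196, and no limit on Agt 128. Of the alternatives added after the data were seen, a robust spread gave 114 and leaving out barcodes with 2% or more UMIs of another cell list 123 (65 higher, 58 lower). The 6 others gave 56 to 106. Apart from the fit without the block, 14 genes passed in every alternative that tested them: Vim, Thbs4, Myoc, Sfrp1, Igfbp5, Rlbp1, Hopx, Crym, C1qa, Vtn, Mbp, Hba-a1, Hba-a2 and Hbb-bt. Of these Myoc, C1qa, Vtn and the hemoglobin genes reached the minimum level through 1 group, so their passing says nothing about stability. Thbs4 averaged close to that minimum in Gfap 0 barcodes, so its passing is a description too. Of the 73 called genes 1 changed sign, Crip1 (-0.036 at 2000 UMIs). Of the uncalled genes 8 were followed (Slc6a11, Kcnj10, Apoe, Id3, C4b, Glul, Mt1 and Mt2), and those that changed sign were Kcnj10 (0.18 at a Gfap minimum of 4, 0.027 with no Agt limit), Apoe (0.25 depth-matched, 0.011 at 2000 UMIs, 0.10 at a Gfap minimum of 4) and Glul (-0.075 at a Gfap minimum of 4). Of these 8, calls were gained by C4b (detected in 10% of either group, no filter on genes, 2000 UMIs, a Gfap minimum of 4 and under 2% UMIs of another cell list), Id3 (detected in 10%, 2000 UMIs) and Slc6a11 (detected in 10%, -0.54, adjusted p = 0.0347). The cause was not tested. The mean share of Gfap 2+ barcodes, 4.58%, was 4.94% with 500 or more detected genes, 5.07% under 20% mitochondrial UMIs, 3.11% at 2000 UMIs, 11.2% at a Gfap minimum of 1 and 2.22% at 4, and leaving out 1 library in turn gave 4.46% to 4.69%. With 1 library left out the genes have values and no test. Only 102 barcodes, 2 libraries and 536 Gfap UMIs stand behind these values.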

Other observations

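Beyond the genes described, Psph, which carries out the last step of serine synthesis, rose from 131 and 170 CPM in Gfap 0 barcodes to 319 and 498 CPM in Gfap 2+ barcodes (log2 fold difference 1.37, SE 0.16, edgeR adjusted p = 0.00256) and was held by 80 of the 102. Fbxo2, which encodes a ubiquitin ligase subunit that recognises glycoproteins, rose from 185 and 256 CPM to 451 and 576 CPM (1.19, SE 0.14, adjusted p = 0.00339). Both are named for their values. Of the 135 barcodes with 3 or more Agt UMIs, 7 held 2 or more Gfap UMIs, and 19 and 10 barcodes of the libraries held 2 or more without passing the astrocyte limits.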
